A study of Mus musculus with 24 samples.

Results

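CXC chemokines are small secreted proteins that guide leukocytes along concentration gradients, and open chromatin at 7 of their genes was followed here in mouse macrophages. A peak of open chromatin was assigned to Cxcl1, Cxcl2, Cxcl3, Cxcl5, Cxcl9, Cxcl10 or Cxcl16 when its summit, the position of highest signal, had that gene as the nearest protein-coding gene body at most 50 kb away. By this rule 430 of 1274891 deposited peaks belonged to the 7 genes. Peaks that overlapped by at least 1 bp between libraries were merged into regions, which gave 34 chemokine regions of 102580 in all. Of these, 27 were found in at least 2 libraries, among 80598 such regions in all, and 7 were seen in a single library.

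The study applied ATAC-seq, in which the Tn5 transposase inserts sequencing adapters into accessible DNA, to bone marrow-derived macrophages of male C57Bl/6 mice. The diabetic mice had received streptozotocin (STZ), which kills the beta cells that make insulin, and the control mice were non-diabetic. Cells of each phenotype were used unstimulated or after exposure to a bacterial cell wall component, lipopolysaccharide (LPS, 100 ng/mL), together with interferon gamma (IFNγ, 10 ng/mL), giving 4 groups of 6 libraries. The labels name no genotype and no age, and they do not say whether a library came from 1 mouse. STZ diabetes models the loss of insulin, and the macrophages matured outside the animal. The stimulation time is uncertain, because the protocol gives 6 h for a culture with IL-1β, a stimulus named by no other label of these samples.

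The 24 deposited lists held 41385 to 61861 peaks, with means of 55990 in control unstimulated, 47268 in control stimulated, 55522 in diabetic unstimulated and 53703 in diabetic stimulated libraries. No source used here gives read totals, so depth is known only through a lowest local background of 0.664 to 1.01 tags per library. Where no peak is listed, the signal fell short of the authors' calling threshold, and some accessibility may still be present. Of 8 macrophage markers, 7 (among them Csf1r, Adgre1 and Spi1) carried a peak in all 24 libraries. Lyz2, the other, had one in 6 libraries of each unstimulated group and 3 of each stimulated group. Defining genes of other cells, such as Cd3e, Cd8a, Ly6g and Elane, had none, while 2 of 5 T cell markers (Cd4 and Lck) and Kit, Klf1, Cdh5 and Pecam1 had a peak in all 24. Cebpe, a granulocyte factor on the list of 6 neutrophil markers, had a peak in 6 libraries of each unstimulated group, 1 control stimulated and 2 diabetic stimulated libraries. Lyz2 and Cebpe thus had a peak in fewer stimulated than unstimulated libraries, and how many of all genes do so is not given here. Neither this difference nor their part in the results was tested. An accessible site near a gene is no measure of its expression.

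Cxcl1, Cxcl2, Cxcl3 and Cxcl5 carry the ELR motif and attract neutrophils through the receptor Cxcr2. Cxcl9 and Cxcl10 are interferon-induced, lack that motif and attract activated T cells through Cxcr3. Cxcl16 is a transmembrane chemokine that binds Cxcr6 and also acts as a scavenger receptor. LPS acts through Tlr4 and transcription factors of the NF-kB family, and IFNγ through Jak kinases and interferon regulatory factors, which bind ISRE elements.

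The 250 bases before the RefSeq gene start (GRCm38.p6, the assembly of mm10) are shown for the 5 members present in the promoter table, because the promoter peaks described below had most of their summits in or beside these stretches. They are written 5′ to 3′ on the coding strand, which is the plus strand for Cxcl1 (chr5:90890995-90891244), Cxcl2 (chr5:90903649-90903898) and Cxcl3 (chr5:90785851-90786100), and the minus strand for Cxcl9 (chr5:92328080-92328329) and Cxcl10 (chr5:92348890-92349139). Capitals mark matches to the NF-kB motif GGGNNTTNCC on either strand, and in Cxcl10 the first capital run is the ISRE match GAAANNGAAA.
Cxcl1: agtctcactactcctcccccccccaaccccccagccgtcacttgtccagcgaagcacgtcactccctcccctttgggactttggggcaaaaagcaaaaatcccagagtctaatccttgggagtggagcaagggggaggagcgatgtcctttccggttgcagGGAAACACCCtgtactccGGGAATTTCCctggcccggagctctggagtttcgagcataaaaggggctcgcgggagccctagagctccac
Cxcl2: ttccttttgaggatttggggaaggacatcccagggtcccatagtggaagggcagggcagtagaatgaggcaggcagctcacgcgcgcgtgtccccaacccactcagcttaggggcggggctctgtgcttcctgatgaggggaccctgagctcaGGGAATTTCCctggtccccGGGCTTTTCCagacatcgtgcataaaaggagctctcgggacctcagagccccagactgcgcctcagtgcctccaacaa
Cxcl3: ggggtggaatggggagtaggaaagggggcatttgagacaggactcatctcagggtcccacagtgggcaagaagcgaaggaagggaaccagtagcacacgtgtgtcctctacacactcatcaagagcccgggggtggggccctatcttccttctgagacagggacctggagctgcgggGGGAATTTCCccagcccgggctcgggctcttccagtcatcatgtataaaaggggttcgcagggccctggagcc
Cxcl9: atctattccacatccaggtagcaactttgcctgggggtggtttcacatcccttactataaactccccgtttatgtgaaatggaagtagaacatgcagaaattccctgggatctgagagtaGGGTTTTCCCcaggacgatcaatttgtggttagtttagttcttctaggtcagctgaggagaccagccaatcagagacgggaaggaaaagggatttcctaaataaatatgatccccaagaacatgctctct
Cxcl10: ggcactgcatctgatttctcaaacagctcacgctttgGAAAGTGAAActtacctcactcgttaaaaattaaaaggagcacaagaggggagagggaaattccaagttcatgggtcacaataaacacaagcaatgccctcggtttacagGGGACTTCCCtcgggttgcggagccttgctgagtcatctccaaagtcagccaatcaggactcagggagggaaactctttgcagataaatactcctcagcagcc

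All 5 promoters held an NF-kB match, against 4.0% of 27025 promoter stretches of the same length in the table. GGGAATTTCC occurred in Cxcl1 (bases 71 to 62 before the start), Cxcl2 (97 to 88) and Cxcl3 (73 to 64). Cxcl1 held another match, GGAAACACCC, which reads as the motif on the opposite strand, at bases 89 to 80, and Cxcl2 held GGGCTTTTCC at bases 78 to 69. The match was GGGTTTTCCC in Cxcl9 (130 to 121) and GGGACTTCCC in Cxcl10 (103 to 94). Cxcl10 alone of the 5 held an ISRE match, GAAAGTGAAA at bases 213 to 204 (3.04% of all promoters), and a match to the AP-1 motif TGANTCA at bases 74 to 68, where it reads TGAGTCA (6.87%). The motif TTCNNNGAA of gamma-activated sites (GAS) was in none of the 5 (7.18% of all promoters). TATAAA lay in Cxcl3 at bases 30 to 25 and in Cxcl9 at bases 195 to 190 (13%). Both strands were searched for each motif, and no match of one motif overlapped a match of another in these 5 sequences. A match describes the letters only.

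After stimulation with LPS and IFNγ, the T cell attractants had more peaks per gene, while peaks at the neutrophil attractants were present in every group. The Cxcl10 promoter had a peak in all 12 unstimulated libraries, but these summits lay before the gene start, within the Art3 gene, and counted for Art3 alone. By this count, summed over Cxcl9 and Cxcl10, the lowest, median and highest number of peaks per library was 0, 0 and 1 in control unstimulated, 0, 0 and 0 in diabetic unstimulated, 1, 4 and 4 in control stimulated, and 1, 3.5 and 4 in diabetic stimulated libraries. Summed over Cxcl1, Cxcl2, Cxcl3 and Cxcl5, the corresponding numbers were 13, 15.5 and 18, then 14, 15.5 and 18, then 13, 14.5 and 16, and 12, 16 and 17. The neutrophil sums of all 4 groups overlapped, whereas the T cell sums of stimulated and unstimulated libraries met at a value of 1. Of the peaks at the 6 genes, Cxcl9 and Cxcl10 held 1.05% in control unstimulated (1 against 94), 0% in diabetic unstimulated (0 against 95), 17.9% in control stimulated (19 against 87) and 17.4% in diabetic stimulated libraries (19 against 90). With every peak of the Cxcl10 promoter region counted for Cxcl10, an alternative chosen after seeing the data, these shares were 6.93% (7 against 94), 5.94% (6 against 95), 19.4% (21 against 87) and 19.6% (22 against 90). The sums over Cxcl9 and Cxcl10 then ran from 1 to 2 peaks in unstimulated and from 2 to 5 in stimulated libraries. These sums over chosen genes are descriptions and carry no test.

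**Figure D1:**
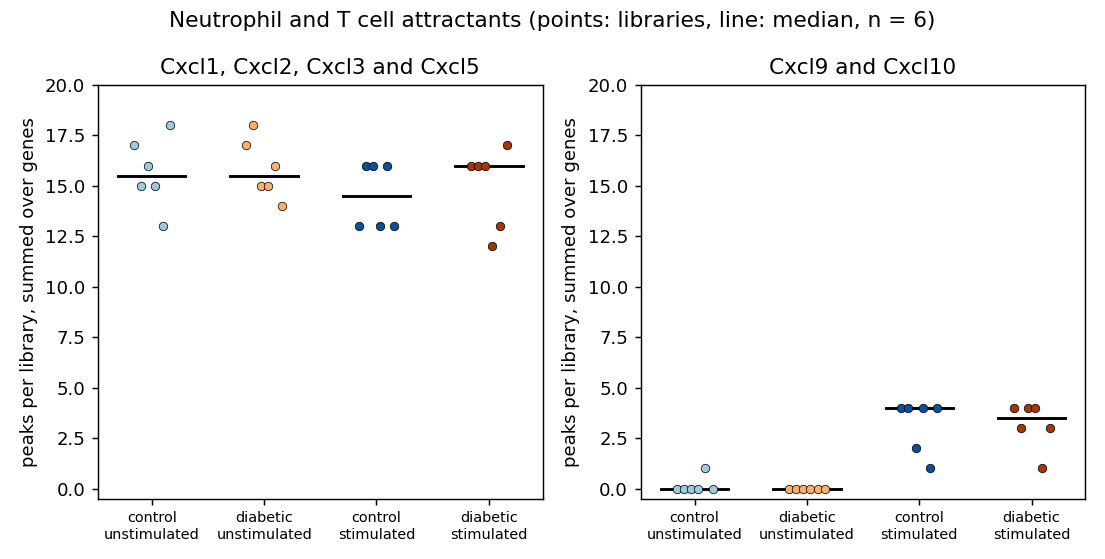
Peaks per library (vertical axis, number of peaks) summed over the neutrophil attractants (left) and the T cell attractants (right) in the 4 groups. Points are libraries and lines are medians of 6; the T cell sums, without promoter peaks whose summit lies before the Cxcl10 start, run from 0 to 1 without stimulation and from 1 to 4 with it, and the neutrophil sums run from 12 to 18.

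For every region, the libraries with and without a peak were counted and compared between groups by Fisher's exact test (two-sided), adjusted by Benjamini-Hochberg over all regions of the genome with enough detections to reach an unadjusted p under 0.05. With both phenotypes together, 12 stimulated were compared with 12 unstimulated libraries, and 10 chemokine regions could be tested. Of these, 4 were gained (found in more stimulated libraries) and 3 were lost, where 9.19% of 31219 regions tested in the genome were gained and 18.9% were lost. The 3 tested regions of Cxcl9 and Cxcl10 were all gained. Of 7 tested regions of the neutrophil attractants, 1 was gained and 3 were lost. The labels do not state that libraries are separate animals, so the p-values treat libraries as the units and apply to these libraries. If some libraries share an animal, the p-values may be too small. Below, the regions of each gene carry letters in order of coordinate.

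**Figure D2:**
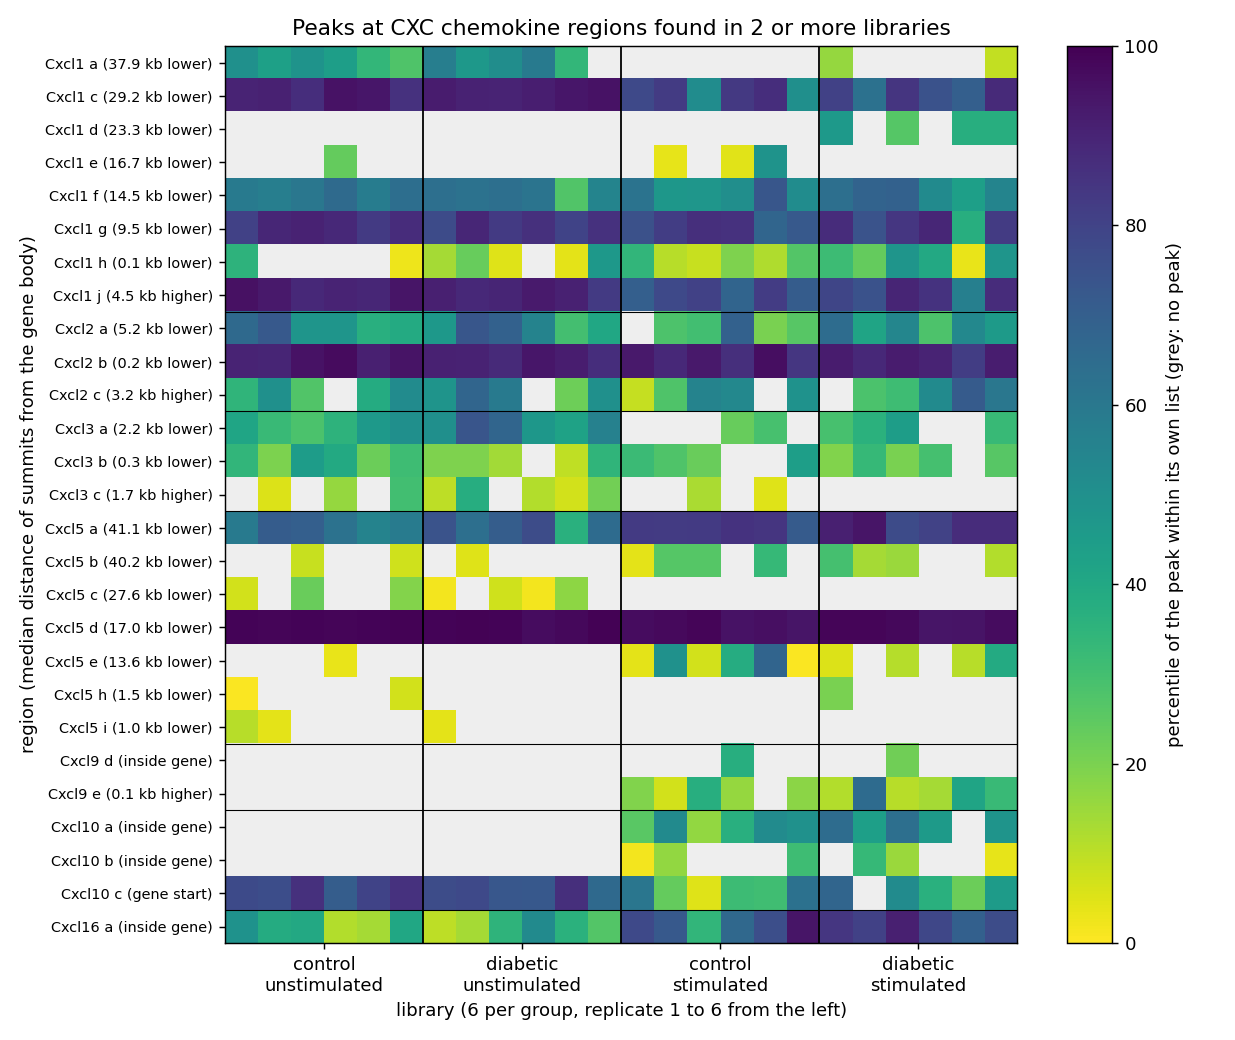
Map of the 27 chemokine regions found in 2 or more libraries (rows, with the median distance of their summits from the gene body) against the 24 libraries (columns). Colour gives the percentile of the peak within its own list and grey means no peak; Cxcl10 a and Cxcl9 e are filled in 11 stimulated libraries each and in no unstimulated library, and 8 rows are filled throughout.

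Cxcl9, an interferon-induced attractant of T cells, lies on the minus strand of chr5:92321331-92328079. Its promoter region, Cxcl9 e (chr5:92328037-92328467), was found in 0 of 6 control unstimulated, 0 of 6 diabetic unstimulated, 5 of 6 control stimulated and 6 of 6 diabetic stimulated libraries. Control stimulated replicate 5 was the single stimulated library without it. The gain with both phenotypes together, 0 of 12 against 11 of 12 libraries, passed Fisher's exact test (adjusted p = 0.000303). Where found, the peak rested on 12 tags at the lowest, 14 at the median and 20 at the highest, a tag being a read piled up at the summit, recovered as described under the processing. Its percentile by the authors' q-value within its own list was 6.69 to 65.0 with a median of 17.4, so in most libraries it was among the weaker peaks. Summits lay 82 to 235 bases before the gene start with a median of 130, the stretch that holds the NF-kB match GGGTTTTCCC.

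The other Cxcl9 regions were rare. Cxcl9 d, inside the gene, was found in 1 control stimulated and 1 diabetic stimulated library, and Cxcl9 a, b and c in a single library each. Cxcl9 a, 2589 bp beyond the gene end, was the sole Cxcl9 peak in an unstimulated library (control replicate 5). Counted per gene, Cxcl9 had 0.0833 ± 0.289 peaks per unstimulated and 1.25 ± 0.622 per stimulated library (SD, n = 12 each). This rise passed the exact permutation test adjusted over 12802 genes (adjusted p = 0.00351), a test in which 2.73% of genes had more peaks after stimulation and 10.0% fewer.

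Cxcl10, also called IP-10, is an interferon-induced attractant for cells that bear Cxcr3 and lies on the minus strand of chr5:92346638-92348889, within the body of Art3, so its peaks count for both genes. Cxcl10 a (chr5:92346900-92347498), inside the gene with summits 1488 to 1753 bases past its start, was found in 0, 0, 6 and 5 of 6 control unstimulated, diabetic unstimulated, control stimulated and diabetic stimulated libraries. Diabetic stimulated replicate 5 lacked it, and its list of 46503 peaks was the shortest of its group. Control stimulated replicates 3 and 4 had shorter lists (41385 and 44525 peaks) and carried Cxcl10 a, and the part of list length was not tested. The gain from 0 of 12 to 11 of 12 libraries passed (Fisher's exact test, adjusted p = 0.000303). These peaks held 18, 24 and 40 tags at the lowest, median and highest.

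Cxcl10 b (chr5:92347749-92348385), nearer to the start and also inside the gene, was found in 3 control stimulated and 3 diabetic stimulated libraries and in no unstimulated library (Fisher's exact test, adjusted p = 0.0489). That call was lost when any 1 of the 12 unstimulated libraries, or control stimulated replicate 1 or 2, was left out, and the adjusted p in these 14 settings was 0.0501 to 0.0522. A further region (chr5:92346342-92346694) overlapped the last 57 bp of the Cxcl10 body, but its summits lay outside the gene and were nearest to Art3. It appeared in 9 of 12 stimulated libraries, 5 control and 4 diabetic, and in 0 of 12 unstimulated ones (Fisher's exact test, adjusted p = 0.00388). Peaks after stimulation thus lay along the Cxcl10 body from its start to its end.

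The promoter region Cxcl10 c (chr5:92348712-92349169) was open in both states. It was found in all 12 unstimulated and in 11 stimulated libraries, all but diabetic stimulated replicate 2. Its peaks held 21, 30.5 and 40 tags without and 18, 25 and 45 tags with stimulation (lowest, median and highest), so the tag numbers overlapped. The authors' fold over the local background did not overlap: it was 7.48, 9.2 and 11 without and 3.0, 3.78 and 4.68 with stimulation. The local background recovered beside these folds was 1.81, 2.37 and 2.79 tags without and 4.17, 5.94 and 10.9 tags with stimulation. The 22770 regions found in all 24 libraries do not include Cxcl10 c. Of these 22770, 2.18% had non-overlapping folds that were lower after stimulation and 0.0571% higher ones. Fold values are the authors' own and are given without a test.

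Summits at the Cxcl10 promoter lay 6 to 111 bases before the start in unstimulated libraries, and 0 of 12 were inside the gene. In stimulated libraries they ran from 95 bases before to 77 bases past the start, and 6 of 11 were inside. Both ranges overlapped. This matters for the count per gene, since a summit before the start belonged to Art3 alone: Cxcl10 had 0 peaks in every unstimulated and 1.92 ± 0.9 peaks per stimulated library (SD, n = 12 each). The rise passed the exact permutation test (adjusted p = 0.00127), and it includes those 6 promoter summits. With every peak of Cxcl10 c counted, Cxcl10 had 1 peak in every unstimulated and 2.33 ± 0.651 peaks per stimulated library (SD, n = 12 each, exact permutation test, adjusted p = 0.00127), a difference of 1.33 in place of 1.92 peaks.

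**Figure D3:**
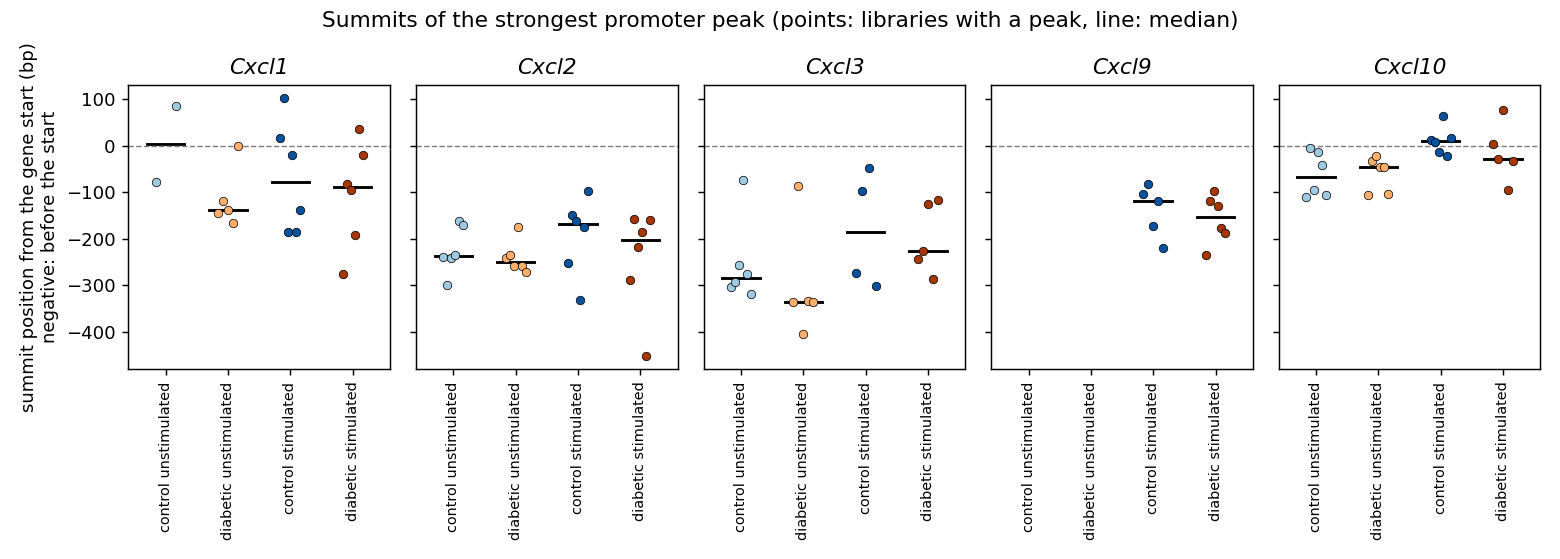
Position of the summit of the strongest promoter peak relative to the gene start (vertical axis, bp, negative before the start) for the 5 genes with a known start, by group. Points are libraries with a peak and lines are medians; Cxcl9 has no points without stimulation, and the Cxcl10 points cross the start in stimulated libraries.

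Cxcl3, which recruits neutrophils and lies on the plus strand of chr5:90786101-90788093, lost peaks. The lowest, median and highest number of peaks per library was 2, 2.5 and 3 in control unstimulated, 2, 3 and 4 in diabetic unstimulated, 1, 1 and 2 in control stimulated, and 0, 2 and 2 in diabetic stimulated libraries. The fall from 2.67 ± 0.651 to 1.42 ± 0.669 peaks (SD, n = 12 each) passed the exact permutation test (adjusted p = 0.00807). It did not pass when every list was shortened to 41385 peaks (adjusted p = 0.257) or with peaks of −log10 q of at least 5 (adjusted p = 0.101).

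Cxcl3 a (chr5:90783723-90784058), 2224 bp before the gene, was found in 6 control unstimulated, 6 diabetic unstimulated, 2 control stimulated and 4 diabetic stimulated libraries (12 against 6 of 12, Fisher's exact test, adjusted p = 0.0489, lost). The call ended when any 1 of the 12 unstimulated libraries, or control stimulated replicate 1, 2 or 3, was left out (adjusted p 0.0501 to 0.0522 in these 15 settings), and with lists of equal length (adjusted p = 0.158). The promoter region, Cxcl3 b (chr5:90785614-90786135), was found in 11 unstimulated and 9 stimulated libraries with 9 to 14 tags. Cxcl3 c, 1702 bp beyond the gene, was found in 8 unstimulated and 2 stimulated libraries (5 of 6 diabetic unstimulated and 0 of 6 diabetic stimulated) and did not pass (Fisher's exact test, adjusted p = 0.0967).

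Cxcl5, known as LIX and also a neutrophil attractant, occupies chr5:90759298-90761625, and all of its 9 regions lay at lower coordinates than the gene. Cxcl5 e (chr5:90745464-90745854), 13624 bp away, was found in 1 control unstimulated, 0 diabetic unstimulated, 6 control stimulated and 4 diabetic stimulated libraries, a gain from 1 to 10 of 12 (Fisher's exact test, adjusted p = 0.00622). It was the one gained region among the neutrophil attractants, with 9 to 20 tags in stimulated libraries, and the adjusted p of the gain was 0.0938 once all lists were shortened to the same length. Cxcl5 c (chr5:90731492-90731841), 27591 bp away, was found in 3 control and 4 diabetic unstimulated libraries and in no stimulated library (7 against 0 of 12, Fisher's exact test, adjusted p = 0.0235, lost). Its peaks were weak, with 6 to 9 tags. Cxcl5 thus had a gained and a lost region, with Cxcl5 d between them, and its number of peaks per library was 3.5 ± 1.09 without and 3.58 ± 0.793 with stimulation (SD, n = 12 each, exact permutation test, adjusted p = 1.0).

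Cxcl5 d (chr5:90741977-90742504), 17044 bp from the gene, was found in all 24 libraries and was the strongest of the chemokine regions by rank. Its percentile within its own list was 94.3 at the lowest, 98.7 at the median and 99.6 at the highest. It held 52, 64 and 72 tags without and 33, 42.5 and 64 tags with stimulation, and these ranges overlapped. The ratio of its medians, stimulated over unstimulated, was 0.664, at percentile 17.2 of the 22770 regions found in all libraries (median ratio 0.82). Cxcl5 a, 41118 bp away and also found in all 24, went the other way. It held 12, 18 and 24 tags without and 20, 24.5 and 41 tags with stimulation, a ratio of medians of 1.36 (percentile 97.6). Next to it, Cxcl5 b was found in 3 unstimulated and 8 stimulated libraries and did not pass (Fisher's exact test, adjusted p = 0.213). Nearer to the gene, Cxcl5 h (1521 bp) and Cxcl5 i (959 bp) were found in 3 libraries each, and Cxcl5 f and g in 1 each.

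Cxcl1, known as KC, is a neutrophil attractant on the plus strand of chr5:90891245-90893121 and had the most regions of the 7 genes. It held 6 to 8 peaks in every library, 6.75 ± 0.622 without and 7.0 ± 0.853 with stimulation (SD, n = 12 each, exact permutation test, adjusted p = 0.867). Cxcl1 a (chr5:90853199-90853629), 37888 bp before the gene, was found in 6 control unstimulated, 5 diabetic unstimulated, 0 control stimulated and 2 diabetic stimulated libraries (11 against 2 of 12, Fisher's exact test, adjusted p = 0.00622, lost). The 2 stimulated peaks held 7 and 9 tags, where the unstimulated ones held 9 to 15.

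The Cxcl1 promoter region, Cxcl1 h (chr5:90890854-90891485), was found in 2 control unstimulated and 5 diabetic unstimulated libraries and in 6 libraries of each stimulated group. This difference, 7 against 12 of 12, did not pass (Fisher's exact test, adjusted p = 0.0967). The promoter peak was weak, with 6 to 15 tags, and its summits ran from 277 bases before to 103 bases past the start. Stronger peaks stood at a distance: Cxcl1 c, f, g and j, between 29168 bp before and 4502 bp beyond the gene, were found in all 24 libraries. Cxcl1 f (chr5:90875938-90877392), 1455 bp wide, held 51 summits, which formed clusters of 21 and 30.

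Cxcl1 c (chr5:90861890-90862321) held 32, 39 and 42 tags without and 12, 20 and 31 tags with stimulation, and these tag numbers did not overlap. The authors' fold at the same summits did overlap, at 12.4, 14.5 and 16 without and 6.7, 9.18 and 13.2 with stimulation. Of the 22770 regions found in all 24 libraries, 1.52% had non-overlapping tag numbers that were lower after stimulation and 0.189% higher ones. The ratio of its medians, stimulated over unstimulated, was 0.513 in tags, where the median ratio over those regions was 0.82, and 0.634 in fold, where it was 0.858. The tag numbers were not adjusted for depth, and they are given without a test. Cxcl1 d (chr5:90867756-90868081), 23330 bp before the gene, was found in 4 of 6 diabetic stimulated libraries and in none of the other 18. With 4 detections it could not pass, and Fisher's exact p between stimulated diabetic and control libraries was 0.0606 before adjustment. How many of all regions show this pattern is not given here.

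Cxcl2, known as MIP-2, is a neutrophil attractant on the plus strand of chr5:90903899-90905938. Its peaks varied little, with 2, 3 and 3 per library in each of the 4 groups (lowest, median and highest). The promoter region, Cxcl2 b (chr5:90903046-90903947), was found in all 24 libraries with 45, 56 and 72 tags without and 33, 44 and 66 tags with stimulation. Its percentile within its own list was 81.8 to 97.2, well above that of the other promoter regions with a neutrophil attractant, which reached 47.9 at Cxcl1 h and 44.6 at Cxcl3 b. The ratio of median tags at Cxcl2 b, stimulated over unstimulated, was 0.786, at percentile 42.1 of the 22770 regions found in all libraries (median ratio 0.82). Cxcl2 a, 5212 bp before the gene, was found in 23 libraries, and Cxcl2 c, 3231 bp beyond it, in 10 unstimulated and 10 stimulated ones. The number of Cxcl2 peaks was 2.83 ± 0.389 without and 2.75 ± 0.452 with stimulation (SD, n = 12 each, exact permutation test, adjusted p = 1.0).

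Cxcl16 lies on chr11:70454389-70459984, apart from the chemokine cluster on chr5, and had 1 region, Cxcl16 a (chr11:70459404-70460170), found in all 24 libraries. The strand of Cxcl16 was not available here, so its edges are not named as start or end. The region also reaches Zmynd15, a gene that overlaps the edge of Cxcl16 at higher coordinates, and 25 of its 26 summits lay inside Cxcl16. It held 8, 12 and 15 tags in unstimulated and 13, 23 and 46 tags in stimulated libraries, which overlap between 13 and 15. The ratio of medians was 1.92, at percentile 99.7 of the 22770 regions found in all libraries. Its detection could not be tested because it was found in every library, and its peaks per library could not because only control unstimulated replicate 6 differed, with 2 peaks where the others had 1.

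**Figure D4:**
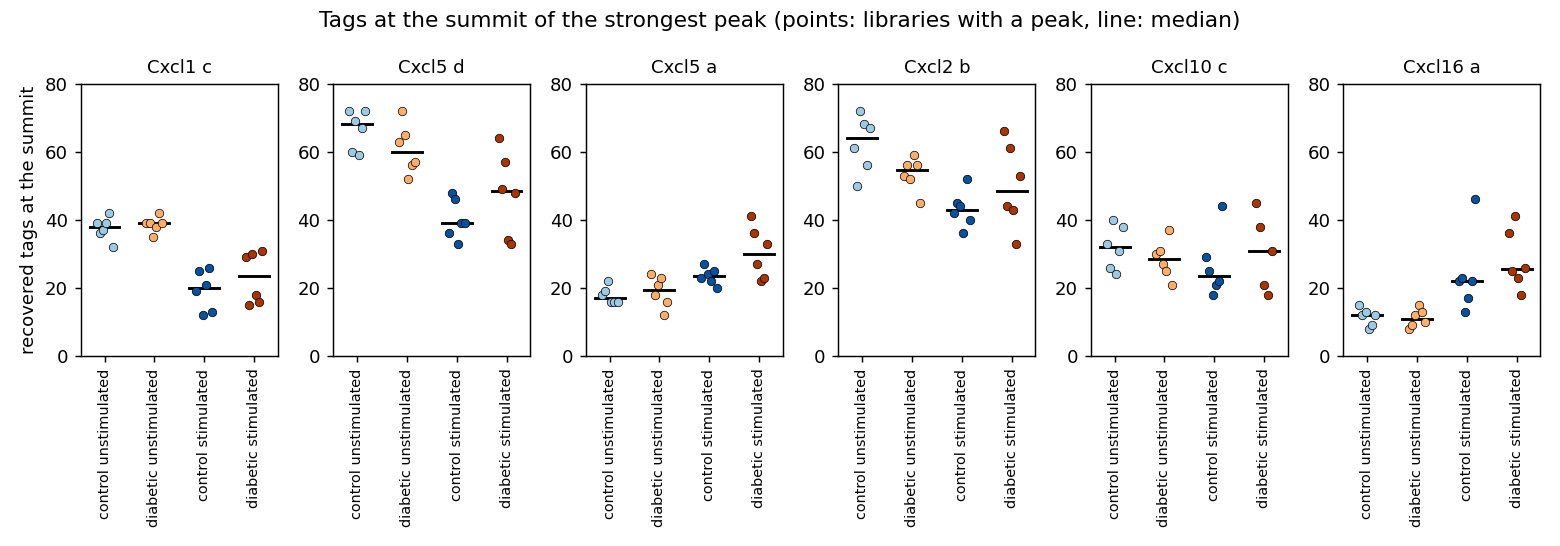
Recovered tags at the summit of the strongest peak (vertical axis, number of tags) in 6 regions, by group. Points are libraries with a peak and lines are medians. Cxcl16 a and Cxcl5 a have higher medians in stimulated groups, Cxcl1 c, Cxcl5 d and Cxcl2 b lower ones, and Cxcl10 c overlaps. Over the 22770 regions found in all 24 libraries, the ratio of median tags, stimulated over unstimulated, had a median of 0.82.

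Within control mice, 6 chemokine regions could be tested (6 against 6 libraries). Gains passed at Cxcl10 a (0 against 6, Fisher's exact test, adjusted p = 0.0173), Cxcl9 e (0 against 5, adjusted p = 0.0422) and Cxcl5 e (1 against 6, adjusted p = 0.0422). The loss at Cxcl1 a passed (6 against 0, Fisher's exact test, adjusted p = 0.0173). Over the genome, 8.41% of 12111 regions were gained and 27.5% lost in this comparison, 35.9% in all. Within diabetic mice, 5 chemokine regions could be tested and 1 passed, the gain at Cxcl9 e (0 against 6, Fisher's exact test, adjusted p = 0.0243), where 5.47% of 11708 regions were gained and 3.44% lost, 8.92% in all. Cxcl10 a (0 against 5) and Cxcl3 c (5 against 0) had an adjusted p of 0.0559 each by Fisher's exact test. The number of peaks per gene passed the exact permutation test for 0 of 9057 genes in control and 0 of 8857 in diabetic mice, with 5 of the 7 chemokine genes tested in each (Cxcl2 and Cxcl16 varied too little), while 2215 and 1194 genes had an unadjusted p under 0.05. At Cxcl10 the unadjusted p was 0.00216 in control mice, the smallest that 6 against 6 can give, and 0.0152 in diabetic mice (exact permutation). At Cxcl9 it was 0.0671 in control and 0.00216 in diabetic mice (exact permutation).

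Whether diabetes changed these regions was compared in each state. Fisher's exact test called 0 of 8788 regions between unstimulated diabetic and control libraries and 0 of 9681 between stimulated ones (percent called 0 in each). At an unadjusted p under 0.05 there were 137 and 292 regions, none of them a chemokine region, of which 2 could be tested in each comparison. The difference in the response to stimulation between phenotypes, by Zelen's exact test, passed in 0 of 9353 regions (229 at an unadjusted p under 0.05, 0 of them at the 1 chemokine region tested). The smallest adjusted p over all regions was 0.972, 0.502 and 1.0 in these 3 comparisons. A call within control mice that was absent within diabetic mice was therefore not shown to differ between them. At Cxcl1 a, such a region, the detections could not reach an unadjusted p under 0.05 in any of these 3 comparisons, so it was not tested. Peaks per gene passed the exact permutation test between diabetic and control libraries for 0 of 8069 genes unstimulated and 0 of 8741 stimulated (177 and 565 at an unadjusted p under 0.05). The plot of peaks per library at each gene shows the diabetic and control points overlapping within each state.

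**Figure D5:**
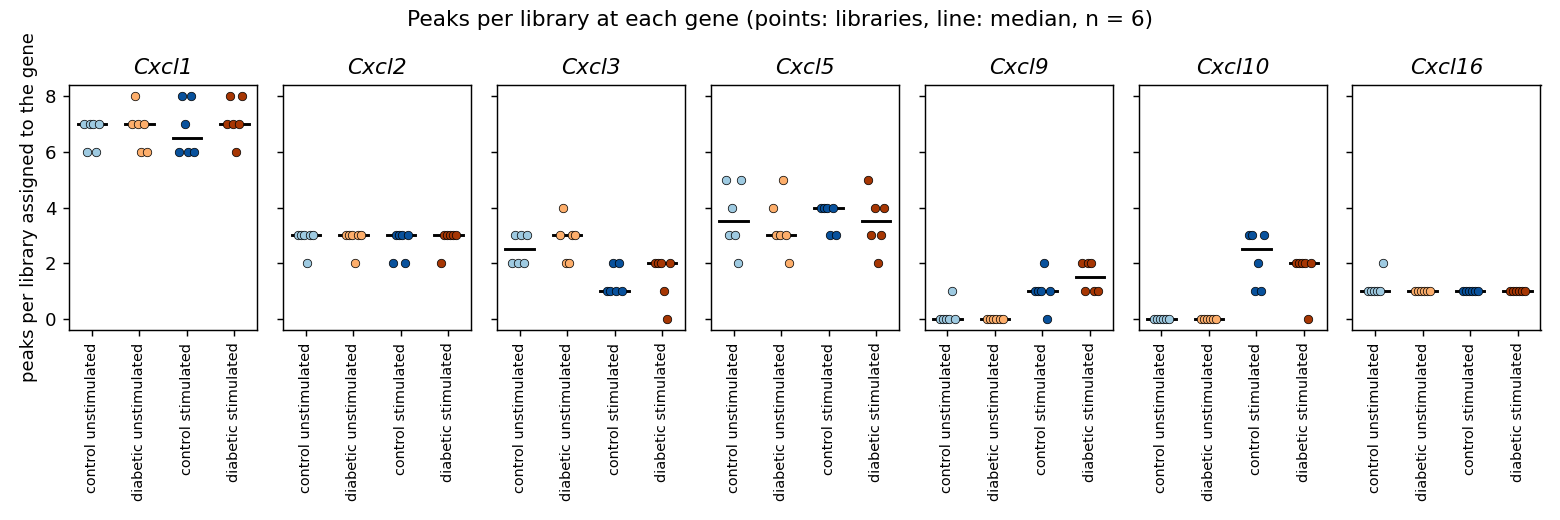
Peaks per library (vertical axis, number of peaks) at each of the 7 genes in the 4 groups. Points are libraries and lines are medians of 6; Cxcl9 and Cxcl10 lie at 0 or 1 without stimulation (Cxcl10 promoter summits before the gene start are not counted), Cxcl3 is lower with stimulation, and Cxcl1, Cxcl2, Cxcl5 and Cxcl16 overlap between states.

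Around the members, 3 regions in the stretch of 50 kb on either side of the Cxcl5, Cxcl3, Cxcl1 and Cxcl2 genes were assigned to other genes (Pf4 and Mthfd2l), and none could be tested. Around Cxcl9 and Cxcl10 there were 20 such regions, of which 6 were tested, 2 were gained and 1 was lost. Besides the region at the end of Cxcl10, the gained one (chr5:92363151-92363520) overlapped Cxcl11, which RefSeq lists for this assembly as a transcribed pseudogene. It was found in 3 unstimulated and 12 stimulated libraries (Fisher's exact test, adjusted p = 0.00388). The lost one lay in Art3, 37949 bp from Cxcl10 (12 against 5, Fisher's exact test, adjusted p = 0.0235). Around Cxcl16, 15 regions belonged to other genes, 4 were tested and 1 was lost, nearest to Med11 and 6836 bp from Cxcl16 (6 against 0, Fisher's exact test, adjusted p = 0.0489).

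Among the other CXC ligands (Cxcl12, Cxcl13, Cxcl14, Cxcl15, Cxcl17, Pf4 and Ppbp), 5 genes had 16 regions, of which 8 were tested and 0 passed Fisher's exact test. At the 8 receptors, which include Cxcr2, Cxcr3 and Cxcr6, 9 of 28 regions were tested and 0 passed. In both lists 0 regions had an unadjusted p under 0.05. At 18 genes of the LPS and IFNγ pathways, 68 of 177 regions were tested, 15 were gained and 20 were lost, against 9.19% and 18.9% over the genome. Nfkb1, an NF-kB subunit, held 5 gained and 2 lost regions. At Irf1, an interferon regulatory factor, 1 region was gained and 2 were lost, and at Irf8, another of that family, 2 were gained and 2 lost.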

How the data were processed

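ATAC-seq peak lists of 24 libraries were used, 1 list per library. MACS2 2.1.1, Bowtie2 2.2.6, DiffBind 2.4.8, edgeR, FastQC 0.11.3, Trim Galore and the mm10 build are named in the submitters' processing notes. How each was set, and any shift of reads for Tn5, is not given in the sources used here. Per the labels' protocols, nuclei of 50000 cells were transposed, libraries were freed of fragments over 1200 bp and sequenced as single reads of 50 bp. Each deposited peak has a score, a fold over the local background (a ratio), and −log10 p and −log10 q values from the authors; the smallest deposited −log10 q was 1.302.

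Gene bodies came from RefSeq (GRCm38.p6, 21887 protein-coding genes, of which 16925 had a peak), and all 7 members matched. Regions found in at least 2 libraries were tested as described (Fisher's exact test, Zelen's exact test for the interaction, exact permutation of peaks per gene; threshold 0.05). Tags k at a summit were recovered from the authors' fold, taken as (k + 1)/(background + 1), and their Poisson −log10 p; 100% of the peaks of the 7 genes were solved to within 0.003. Peak strengths, percentiles and tags are descriptions within lists. Replicate numbers come from the titles, and the labels do not say whether equal numbers share a mouse. The 12 same-numbered pairs had correlations of deviations of −0.01 to 0.01, and comparisons were unpaired. No 2 lists were identical. Regions were described if they passed any comparison or were a member's most often found region, with the remaining regions by count or value. The members and lists were chosen with earlier results of these data known. The region test was tested on simulated data. In these, 200 of 80598 regions had detection rates of 0.95 in the higher and 0.05 in the lower state. Of the 200, 87% were recovered in the comparison of both phenotypes together (88.4% by exact calculation), with 0 false calls. Smaller differences in rate were not simulated, so this gives no recovery for regions such as Cxcl3 a. Python 3.11.15, numpy 2.4.6, pandas 2.3.3, scipy 1.17.1 and matplotlib 3.10.9 were used. Alternatives are given in the closing section.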

Additional observations from a re-analysis of the deposited data

Results flagged for a closer look

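Within groups of 6, some libraries stood apart from the others in the number of peaks per gene (Dixon's 95% critical value, 0.625). At Cxcl2, control unstimulated replicate 4, diabetic unstimulated replicate 4 and diabetic stimulated replicate 1 had 2 peaks where the other libraries of their group had 3. At Cxcl9, and in the sum over Cxcl9 and Cxcl10, control unstimulated replicate 5 had 1 peak where the others had 0. Diabetic stimulated replicate 5 had 0 peaks at Cxcl10 where the others had 2, and a sum over Cxcl9 and Cxcl10 of 1 where the others had 3 to 4. Control unstimulated replicate 6 had 2 peaks at Cxcl16 where the others had 1. These are 8 of 29 groups tested, 27.6%, where chance gives about 1 in 20 for continuous values; the numbers here are small integers with many ties.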

How the results depend on the processing

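Called regions with both phenotypes together were 4 gained and 3 lost. With peaks of −log10 q of at least 5 (29854 to 48229 peaks per list), 1 was gained; the lost count was 1 with lists of equal length (41385 peaks), 1 with a distance limit of 10 kb and 1 with adjustment over all 80598 regions. In control mice the 3 gained became 1 with equal lists, 0 at the stricter q, 0 with adjustment over all regions and 1 under the replicate block, and the 1 lost became 2 at the stricter q, 0 at 10 kb and 0 with adjustment over all regions. In diabetic mice the 1 gained became 0 at the stricter q and 0 with adjustment over all regions, and the 0 lost became 1 with equal lists. Genes with more peaks went from 2 to 1 at the stricter q, genes with fewer from 1 to 0 with equal lists and 0 at the stricter q, and in control mice genes with more peaks went from 0 to 1 at 10 kb. No direction reversed, and the causes were not tested. Counting every peak of the Cxcl10 promoter region for Cxcl10, chosen after seeing the data, changed no call of peaks per gene; it moved the share of Cxcl9 and Cxcl10 among peaks of the 6 genes from 0.526% to 6.44% in unstimulated and from 17.7% to 19.5% in stimulated libraries.

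Cxcl9 e had an adjusted p of 0.000303 to 0.0471, Cxcl10 a of 0.000241 to 0.0188 and Cxcl1 a of 0.000241 to 0.0451 over the alternatives that gave a value. Beside the values in the report, Cxcl3 a did not pass with summit clusters (adjusted p = 0.054) or with adjustment over all regions (0.126), nor did Cxcl5 c (0.0606) and Cxcl10 b (0.126) with that adjustment, nor Cxcl9 peaks per gene at the stricter q (0.104). Leaving out each of the 24 libraries gave 3 to 4 gained and 2 to 4 lost regions, and the calls other than Cxcl3 a and Cxcl10 b were kept each time.

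Whether equal replicate numbers mark paired samples is unknown, since the labels do not say. The correlations could not decide it: 2 of 12 libraries correlated best with their own number, but even the best r was 0.01 to 0.03. Under the replicate block (exact McNemar test) the adjusted p was 0.0653 at Cxcl3 a and at Cxcl10 b, and over all regions with both phenotypes together 2222 were gained and 4381 lost, against 2868 and 5901 unpaired. Detection at a calling threshold cannot show a change in regions found in every library, and a group of 6 against 6 gives no p below 0.00216.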

Other observations

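Over the 24 libraries, the genes whose number of peaks followed that of Cxcl9 and Cxcl10 most closely, among 12337 genes compared, were Ubl5 (Pearson r = 0.95), Dcn (0.92), 3830406C13Rik (0.91), Gbp2b (0.91) and Rtel1 (0.89). Gbp2b encodes an interferon-induced guanylate-binding protein. It had 2.25 peaks per unstimulated and 3.75 per stimulated library on average, and Dcn had 0 and 2.08. For the sum over Cxcl1, Cxcl2, Cxcl3 and Cxcl5 the closest genes were St8sia1 (0.78), 3110009E18Rik (0.76), Gm40892 (0.75), Rab3gap2 (0.72) and Dusp6 (0.71). All points of a library share its depth and list length, so these values are descriptions. They use the count in which Cxcl10 promoter summits before the gene start belong to Art3 alone.

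Another region lay 149 bp from Cxcl11 (chr5:92359035-92359395) and was found in 0 unstimulated and 5 stimulated libraries (Fisher's exact test, adjusted p = 0.0967). Between Cxcl9 and Cxcl10 lay a region in Art3 (chr5:92331184-92331424), 3225 bp from Cxcl9. It was found in 4 of 6 diabetic stimulated libraries and in none of the other groups. With 4 detections it could not be tested, and how many of all regions show this pattern is not given here. Diabetic stimulated lists were longer than control stimulated ones (means of 53703 and 47268 peaks), and the part of list length was not tested.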
